A study of Mus musculus with 8 samples.

Results

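RNA bound to an antibody against RNF17 was compared between testes of mice heterozygous for Rnf17 and testes of mice homozygous for it. The comparison uses 4 of the series' 8 RNA sequencing libraries, chosen by their titles: 2 RNF17 immunoprecipitates (IPs) from heterozygous testes and 2 from homozygous testes. All mice were C57BL/6 and 6 weeks old. For both genotypes the labels describe lysate of dissected testes kept with the antibody, diluted 1 in 500, for 10 hours, then with protein A beads for 2 hours, washed 5 times. The other 4 libraries are whole testis of each genotype, 2 each, with no antibody, and serve here as the input. The labels name no wild-type mice, do not describe the mutant allele and do not say if replicates are different animals. A p-value here therefore reflects the variation among these 4 libraries, part or all of which could be technical.

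RNF17 is a germ cell protein with a RING finger and several Tudor domains, the modules that bind methylated arginines such as those on PIWI proteins. PIWI proteins carry piRNAs, small RNAs cut from long single-stranded precursor transcripts, and guide the cutting of transposon RNA; in the ping-pong cycle, sense and antisense transcripts are cut in turn. In mouse testis RNF17 sits in cytoplasmic granules of male germ cells, and males without it are sterile because spermatids do not mature. An IP from homozygotes gives the RNA that the antibody and beads collect when the target is missing or disrupted, so the comparison asks which RNA is recovered in excess of that background.

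Rnf17 RNA followed the labels. It stood at 1283 and 1213 CPM in the heterozygous IPs, against 207 and 375 CPM in the homozygous IPs, a log2 fold change, heterozygous over homozygous, of 2.10 (SE 0.27, edgeR adjusted p = 0.000185). CPM are gene read counts brought to one library size, after TMM scaling of the 4 IP libraries, and edgeR p-values are Benjamini-Hochberg adjusted over all entries tested, with a call at an adjusted p under 0.05. In the testis libraries, which were scaled apart from the IPs so that levels of the 2 sets can be set side by side only roughly, Rnf17 was at 511 and 561 CPM in heterozygous testes and 50.7 and 98.9 CPM in homozygous testes. The IP libraries held 9222913 and 5858753 gene reads from heterozygotes and 5661754 and 7344970 from homozygotes. Replicates correlated in log2 CPM at r = 0.982 for the heterozygous and 0.967 for the homozygous IPs across 13427 entries, which are not independent replicates. Nasp alone took 1.57% and 2.27% of gene reads in the heterozygous IPs and 5.51% and 6.85% in the homozygous IPs, against 0.354% to 0.635% in the testes.

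Of the 13427 gene entries tested, 4042 differed between the IPs (30.1%), 2371 of them higher in the heterozygous IPs (17.7%) and 1671 lower (12.4%), by edgeR's quasi-likelihood test. Higher entries made up 58.7% of the calls. DESeq2 called 3437 of 14081 (24.4%), 1922 higher (13.6%) and 1515 lower (10.8%). Scaling by total gene reads in place of TMM shifted the all-gene median log2 fold change up by 0.27, and 79.1% of its calls were then higher (3145 higher, 832 lower). Gene list medians between -0.27 and 0 lie within that shift. Heterozygous IP 1 weighed most on the counts: without it 2069 entries were called, 1482 higher and 587 lower. The plot of single genes by library shows the extremes of each direction.

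**Figure D1:**
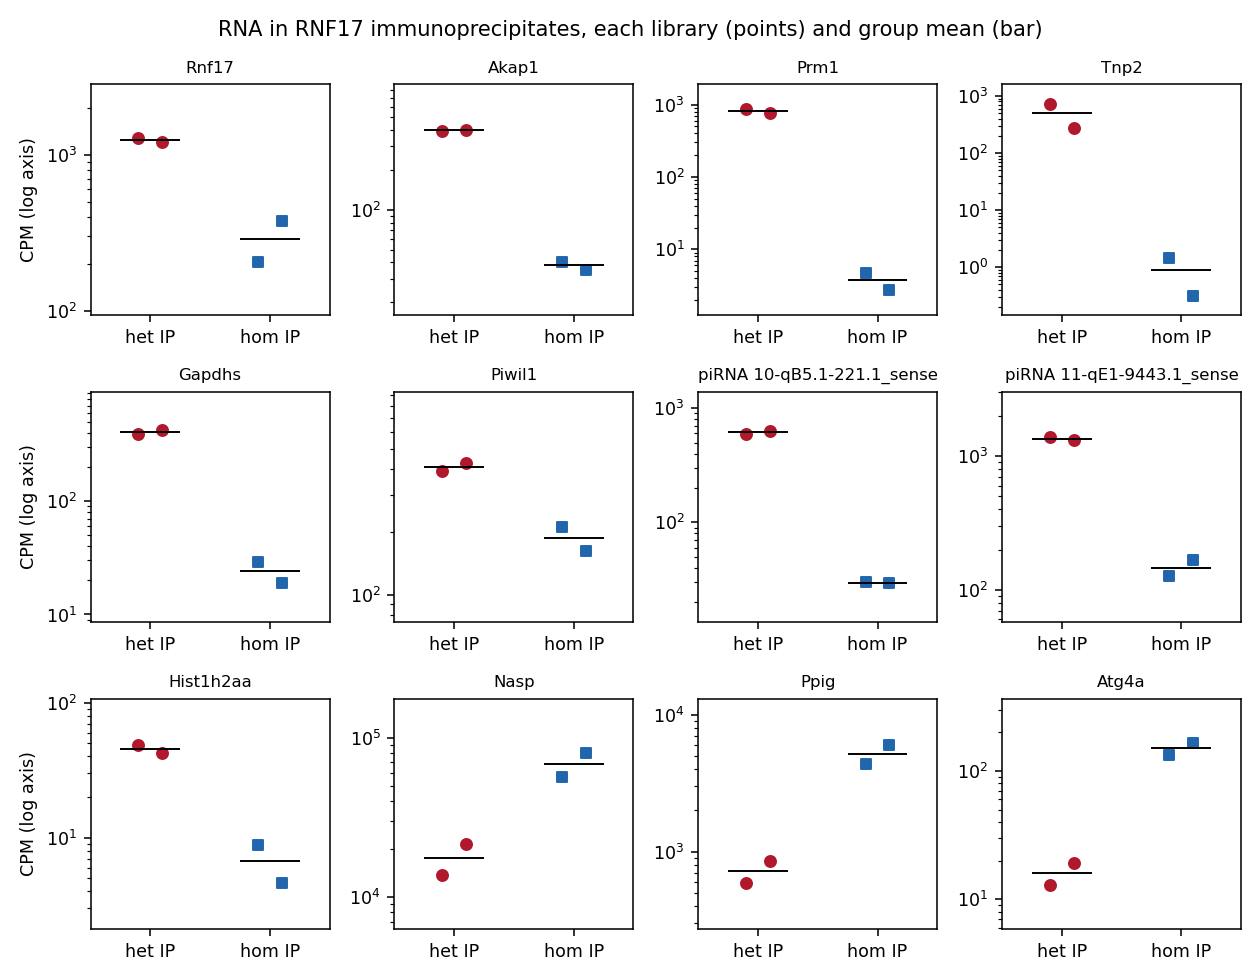
CPM (log axis) of 12 genes and piRNA precursor loci in each RNF17 IP library: heterozygous IPs as red circles, homozygous IPs as blue squares, bars at the group means. In every panel the 2 groups are apart; Prm1 stands at 865 and 763 CPM in the heterozygous IPs and at 4.76 and 2.71 CPM in the homozygous IPs, and Nasp is lower in the heterozygous IPs.

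Genes of elongating spermatids, the haploid cells that compact their chromatin and build the sperm tail, made the clearest group among those higher in the heterozygous IPs. Of 36 such genes tested, 34 rose (94.4%, against 17.7% of all entries) and none fell. Their median log2 fold change was 3.13, against 0.03 for all genes. Prm1, one of the protamines that package sperm DNA, stood at 865 and 763 CPM in the heterozygous IPs, against 4.76 and 2.71 CPM in the homozygous IPs, a log2 fold change of 7.78 (SE 0.31, edgeR adjusted p = 1.34e-07). Its partner Prm2 was at 1062 and 1021 CPM in the heterozygous IPs, against 4.03 and 6.37 CPM in the homozygous IPs, with a log2 fold change of 7.63. For both protamines the groups lay far apart and the libraries within a group were close. Tnp2, a transition protein that precedes the protamines, was at 723 and 269 CPM in the heterozygous IPs, against 1.46 and 0.319 CPM in the homozygous IPs; its log2 fold change of 9.15 (SE 0.62, edgeR adjusted p = 1.97e-06) rests on 10 reads in the homozygous IPs. The libraries of a group differed several-fold for Tnp2, but did not overlap between groups. 4931407G18Rik, an older symbol of Cabs1, a calcium-binding protein of spermatids, was at 327 and 373 CPM in the heterozygous IPs, against 4.21 and 4.62 CPM in the homozygous IPs.

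Other members of that list rose less. Odf1, of the outer dense fibres of the tail, was at 1021 and 1189 CPM in the heterozygous IPs, against 105 and 126 CPM in the homozygous IPs (log2 fold change 3.26), and Smcp, a protein of the mitochondrial capsule, at 951 and 1358 CPM in the heterozygous IPs, against 71.4 and 75.3 CPM in the homozygous IPs (3.98 on the log2 scale). Akap4, of the fibrous sheath, rose by 3.46, and Odf2 by 0.66. Cylc1, of the sperm head skeleton, was the one member below 0, at 164 and 214 CPM in the heterozygous IPs, against 237 and 291 CPM in the homozygous IPs, and was not called (edgeR adjusted p = 0.103). Odf4 was not called either. So the list spans log2 fold changes of -0.49 to 9.15, and its summed level was 13851 and 13546 CPM in the heterozygous IPs against 2772 and 3015 CPM in the homozygous IPs.

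In the input the same genes leaned the same way. Between the testis libraries, which are not part of the IP comparison, the median log2 fold change of the 36 elongating spermatid genes was 3.88, heterozygous over homozygous, against 3.13 in the IPs. No single testis fold change passed its own test: edgeR called 0 of 14332 genes (0%; 1453 at an unadjusted p under 0.05, smallest adjusted p = 0.133), so testis values are given here as values without a call. The difference between the IP and the testis fold change, from one edgeR fit over all 8 libraries, had a median of -0.57 over these genes. In bulk samples, fewer cells of a type and less RNA per cell cannot be told apart. The part of the input difference in the IP difference was not tested for single genes beyond that fit, in which edgeR called no gene (0 of 14180, 0%, smallest adjusted p = 0.214; 1373 at an unadjusted p under 0.05, and 245 called by DESeq2).

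Round spermatid genes showed the same direction, with 18 of 27 higher (66.7%, against 17.7% of all entries) and 2 lower (7.41%, against 12.4%). They had a median of 1.59 and a testis median of 1.77. Gapdhs, the sperm-specific glycolytic enzyme, was at 391 and 423 CPM in the heterozygous IPs, against 29.3 and 18.8 CPM in the homozygous IPs, a log2 fold change of 4.08 (SE 0.26, edgeR adjusted p = 1.43e-06). Ace, whose testis isoform is needed for fertility, was at 247 and 203 CPM in the heterozygous IPs, against 24.9 and 19.9 CPM in the homozygous IPs (3.33 on the log2 scale). Tssk6, a testis-specific kinase, was at 35.1 and 45.3 CPM in the heterozygous IPs, against 0.549 and 0 CPM in the homozygous IPs, with 3 reads in the homozygous IPs; the ratio of pooled, scaled reads was 152-fold (exact 95% interval 51.8 to 739.6), an interval of counting error only. The members that fell were Catsper4, a subunit of the sperm calcium channel, at 48.98 and 84.1 CPM in the heterozygous IPs, against 140.2 and 226 CPM in the homozygous IPs, and Zpbp2, an acrosomal protein, at 110.0 and 97.7 CPM in the heterozygous IPs, against 225 and 292 CPM in the homozygous IPs. In testis the fold changes of those 2 genes were above 0, at 1.04 and 0.82 on the log2 scale.

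Among the 10 largest rises at a mean log2 CPM of 3 or more, 9 were genes with 0 or 1 read in the homozygous IPs, and Tnp2 was the tenth. 1700080E11Rik had 48.3 and 34.3 CPM in the heterozygous IPs and no read in the homozygous IPs, at least 169-fold higher with the homozygous group set at a floor of 3 reads in all. The same bound was 115-fold for 1700011F03Rik, 115-fold for 4933402N03Rik, 86.03-fold for Prss51, a serine protease gene, and 81.8-fold for 1700020A23Rik. Ttc24 had 72.7 and 61.6 CPM in the heterozygous IPs and 1 read in the homozygous IPs, a pooled ratio of 805-fold (exact 95% interval 144 to 31831). H2afb1, a short histone H2A variant, had 35.00 and 29.6 CPM and 1 read in the homozygous IPs, a ratio of 387-fold (exact 95% interval 69.3 to 15332). 1700016H13Rik and Cstl1, a cystatin-like gene, had 1 read each as well. Each of these genes that was tested in testis had a fold change above 0 there too, of 3.68 (H2afb1) to 8.12 (4933402N03Rik) on the log2 scale.

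**Figure D2:**
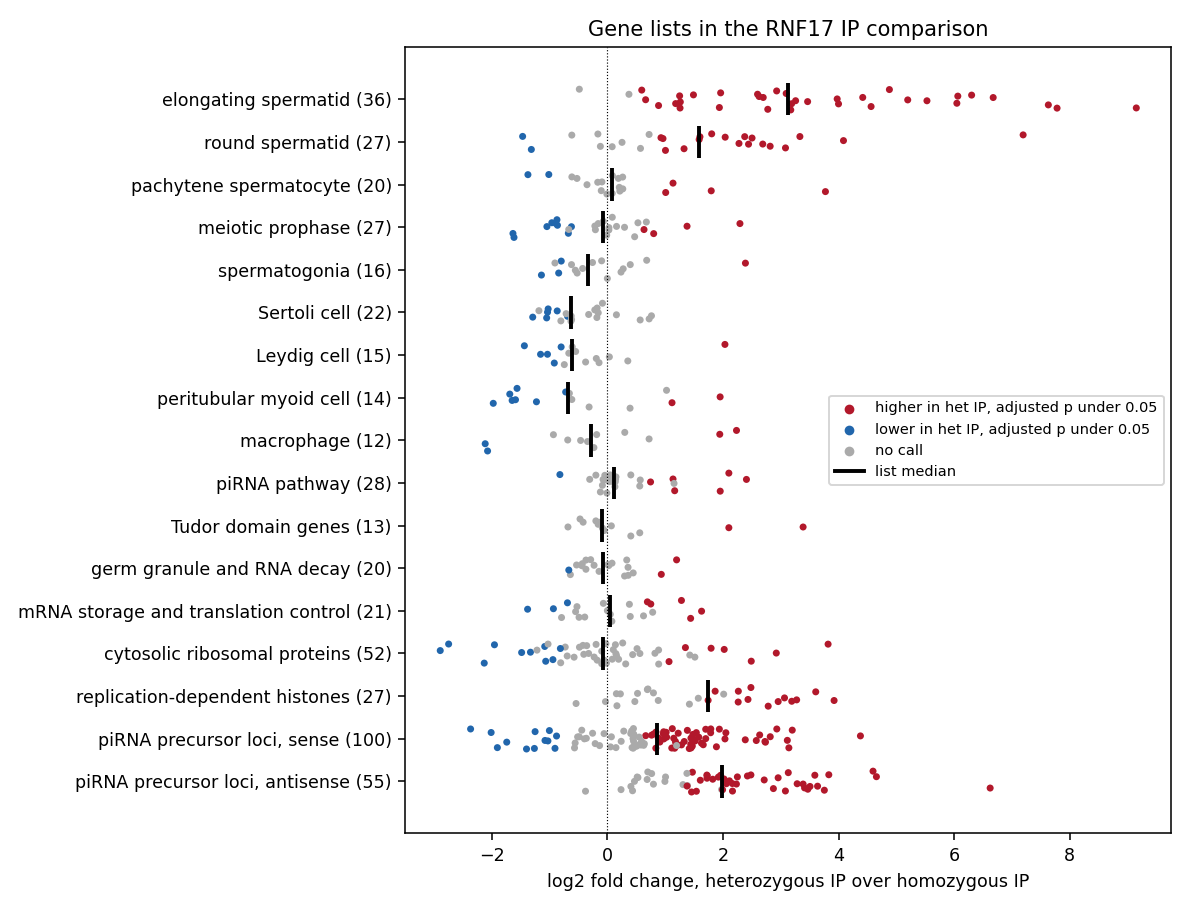
Log2 fold change, heterozygous IP over homozygous IP, of each tested member of 17 gene lists (number tested in brackets); red, higher at an adjusted p under 0.05; blue, lower; grey, no call; black bars, list medians. Elongating spermatid genes sit highest (median 3.13), and the median bars of piRNA precursor loci (sense, antisense) and replication-dependent histones lie right of 0, at 0.86, 1.98 and 1.74. The antisense locus and histone medians cover only entries that passed the filter, 55 of 100 and 27 of 62. Entries could pass it through the higher group alone.

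Genes of earlier germ cells and somatic cells moved less, and their counts of up to 6 calls changed by up to 3 members when a library was left out. Of 27 meiotic prophase genes 4 were higher (14.8%, against 17.7% of all entries) and 9 lower (33.3%, against 12.4%). Their median was -0.07. Rec8, the meiotic cohesin subunit, was at 70.8 and 42.4 CPM in the heterozygous IPs, against 9.70 and 13.4 CPM in the homozygous IPs and rose by 2.29, while Tex101, a germ cell surface protein, was at 67.1 and 42.2 CPM in the heterozygous IPs, against 159.8 and 177 CPM in the homozygous IPs and fell by 1.62 on the log2 scale. Sycp1 and Sycp3, of the synaptonemal complex, fell by 0.87 and 0.96. Of 20 pachytene spermatocyte genes, 4 rose and 2 fell, 20% and 10%, close to the 17.7% and 12.4% of all entries, with a median of 0.08. Calr3, a testis chaperone, was at 117 and 105 CPM in the heterozygous IPs, against 8.97 and 7.33 CPM in the homozygous IPs, and Pgk2, a germ cell glycolytic enzyme, at 168 and 153 CPM in the heterozygous IPs, against 46.9 and 45.4 CPM in the homozygous IPs. Clgn, another chaperone, and Hspa2 fell by 1.38 and 1.01. In testis Calr3 and Pgk2 also lay above 0, at 3.81 and 3.05 on the log2 scale.

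Of 16 spermatogonial genes 1 rose and 3 fell (median -0.34), of 22 Sertoli cell genes none rose and 6 fell (-0.62), of 15 Leydig cell genes 1 rose and 5 fell (-0.61), and of 14 peritubular myoid genes 2 rose and 7 fell (-0.69). The shares that fell, 18.8% to 50%, stand beside 12.4% of all entries. Vim, the intermediate filament of Sertoli cells, was at 33.1 and 33.5 CPM in the heterozygous IPs, against 86.4 and 76.8 CPM in the homozygous IPs, and Hsd3b6, a steroid-making enzyme of Leydig cells, at 22.6 and 29.3 CPM in the heterozygous IPs, against 85.5 and 54.6 CPM in the homozygous IPs. Aard and Cst12, other Sertoli genes, fell by 1.03 and 1.05, and Hsd3b1 by 1.16. Myh11 and Pdgfra, of myoid cells, fell by 1.56 and 1.59. Summed Sertoli levels were 1112 and 1032 CPM in the heterozygous IPs and 1995 and 1391 CPM in the homozygous IPs. In testis these 4 lists also had medians below 0, at -0.77 for spermatogonia, -0.78 for Sertoli cells, -1.22 for Leydig cells and -1.03 for myoid cells. Without heterozygous IP 1 the meiotic falls numbered 2, the Leydig falls 2 and the spermatogonial falls 0.

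Some members left their list's direction. Scarb1, the lipoprotein receptor of Leydig cells, was at 58.1 and 54.2 CPM in the heterozygous IPs, against 13.7 and 13.7 CPM in the homozygous IPs, a log2 fold change of 2.03 (SE 0.23, edgeR adjusted p = 7e-05). Actg2, a smooth muscle actin, was at 73.5 and 64.5 CPM in the heterozygous IPs, against 14.3 and 21.3 CPM in the homozygous IPs. Of 12 macrophage genes 2 rose and 2 fell, 16.7% each, against 17.7% and 12.4% of all entries (median -0.29). Aif1 was at 285 and 339 CPM in the heterozygous IPs, against 55.3 and 77.1 CPM in the homozygous IPs. Fcer1g was at 3.14 and 1.78 CPM in the heterozygous IPs, against 11.2 and 10.99 CPM in the homozygous IPs. In testis the log2 fold changes of Aif1 and Actg2 were above 0 as well, at 4.42 and 3.95. Of 6 endothelial genes, Vwf alone was called, at 18.6 and 19.1 CPM in the heterozygous IPs, against 3.11 and 2.23 CPM in the homozygous IPs, and of the blood list Alas2 alone was tested, with no call. Of 19 abundant housekeeping genes 3 rose and 3 fell (15.8% each, median -0.05), near the shares of all entries. Among them Ppia was at 23.5 and 26.7 CPM in the heterozygous IPs, against 8.79 and 6.37 CPM in the homozygous IPs. Hprt was at 12.8 and 16.01 CPM in the heterozygous IPs, against 35.1 and 36.3 CPM in the homozygous IPs. Of 6 interferon genes 2 rose and 1 fell (0.21), and each of these 3 calls was lost when heterozygous IP 1 was left out, with Mx1 then at 2.10 on the log2 scale, Ddx58 at 1.07 and Mx2 at -0.68.

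RNF17's own family of Tudor domain genes did not move as a group. Of 13 tested, Rnf17 and Akap1 rose (15.4%, against 17.7% of all entries) and none fell, and the median was -0.09. Akap1, an anchoring protein of the mitochondrial surface with a Tudor domain, was at 392 and 400.3 CPM in the heterozygous IPs, against 40.6 and 35.2 CPM in the homozygous IPs, a log2 fold change of 3.39 (SE 0.21, edgeR adjusted p = 1.43e-06); in testis the fold change was 4.07. Tdrd1, a scaffold that binds PIWI proteins, was at 322 and 343 CPM in the heterozygous IPs, against 321 and 370.0 CPM in the homozygous IPs. Tdrd6, a spermatid granule protein, was at 664 and 656 CPM in the heterozygous IPs, against 734 and 525 CPM in the homozygous IPs, and Tdrd7 at 327 and 286 CPM in the heterozygous IPs, against 318 and 349 CPM in the homozygous IPs. The levels of these 3 overlapped or nearly met between the groups, and none was called. Tdrd5, needed for spermatid granules, came closest, at 121 and 100.4 CPM in the heterozygous IPs, against 79.4 and 71.2 CPM in the homozygous IPs (log2 fold change 0.56, SE 0.20, edgeR adjusted p = 0.0564).

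Of 28 genes of the piRNA pathway 6 rose (21.4%, against 17.7% of all entries) and 1 fell (3.57%, against 12.4%), with a median of 0.12. The share that rose was thus near that of all entries. Piwil1, the PIWI protein of pachytene spermatocytes and round spermatids also known as MIWI, was at 392 and 426 CPM in the heterozygous IPs, against 209.9 and 162 CPM in the homozygous IPs, a log2 fold change of 1.13 (SE 0.21, edgeR adjusted p = 0.00174). In testis Piwil1 was at 140.1 and 260.0 CPM in heterozygous testes and 149.9 and 561 CPM in homozygous testes, a log2 fold change of -0.83, so the IP and testis values pointed in opposite directions. The difference of 1.88 between them was not called (edgeR adjusted p = 0.515). Gtsf1, a zinc finger cofactor of PIWI cutting, was at 69.1 and 42.05 CPM in the heterozygous IPs, against 13.5 and 7.65 CPM in the homozygous IPs and rose by 2.41. Nt5c1b, a nucleotidase gene in that list, rose by 1.95, Gpat2 by 1.16 and Pld6, the mitochondrial nuclease that makes piRNA ends, by 0.75. Gpat2, an acyltransferase of piRNA-making cells, was at 67.8 and 51.3 CPM in the heterozygous IPs, against 26.2 and 27.1 CPM in the homozygous IPs, and it too was below 0 in testis, at -1.10. By contrast, Gtsf1, Nt5c1b and Rnf17, which is also in this list, were above 0 in testis, at 1.28, 2.90 and 2.84 on the log2 scale. Piwil2, the partner of Piwil1 known as MILI, was at 177 and 208 CPM in the heterozygous IPs, against 181 and 169.8 CPM in the homozygous IPs, Mov10l1, the helicase of precursor processing, at 247 and 236 CPM in the heterozygous IPs, against 197 and 242 CPM in the homozygous IPs and Ddx4, the helicase VASA, at 1212 and 1059 CPM in the heterozygous IPs, against 1174 and 1219 CPM in the homozygous IPs. None of those 3 was called, and their log2 fold changes were 0.14, 0.14 and -0.08. Hsp90aa1, a chaperone used in loading, fell by 0.82.

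Among 20 genes of germ granules and RNA decay 2 rose and 1 fell (median -0.07), 10% and 5%, below the 17.7% and 12.4% of all entries. Eif2c2, an older symbol of the small RNA binding protein AGO2, was at 103 and 91.1 CPM in the heterozygous IPs, against 40.3 and 44.3 CPM in the homozygous IPs, a log2 fold change of 1.20 (SE 0.20, edgeR adjusted p = 0.00121). Dcp1a, a decapping cofactor, rose by 0.93, and lost its call without heterozygous IP 2, at 0.90. Pabpc1, the poly(A)-binding protein, was at 766 and 889 CPM in the heterozygous IPs, against 1298 and 1332 CPM in the homozygous IPs; its fall of 0.67 lost its call without heterozygous IP 1, heterozygous IP 2 or homozygous IP 2, at -0.56, -0.78 and -0.64. Of 21 genes of mRNA storage and translation control 5 rose (23.8%) and 3 fell (14.3%), again near the shares of all entries, with a median of 0.05. Fam46c, a poly(A) polymerase, was at 163 and 126 CPM in the heterozygous IPs, against 49.1 and 44.6 CPM in the homozygous IPs, and Ybx1, an RNA-packaging Y-box protein, at 236 and 496 CPM in the heterozygous IPs, against 1088 and 819 CPM in the homozygous IPs. Boll, an RNA-binding protein of meiosis, and Fxr1, of translation in spermatids, rose by 1.28 and 0.75. Paip2, an inhibitor of poly(A)-binding protein, was at 153 and 160.4 CPM in the heterozygous IPs, against 64.8 and 50.7 CPM in the homozygous IPs.

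Precursor loci of piRNAs, the long transcripts from which piRNAs are cut, had opposite medians in IP and input. The gene table lists 100 loci, each with a sense and an antisense entry, named by chromosome and band. They held 4.27% and 4.53% of gene reads in the heterozygous IPs and 1.86% and 2.13% in the homozygous IPs, against 2.19% and 1.45% in heterozygous testes and 2.89% and 3.60% in homozygous testes. All 100 sense entries were tested: 54 rose and 12 fell, where 17.7% and 12.4% of all entries did, and their median was 0.86. In testis the median of the same 100 was -0.43, and the median difference between the IP and testis fold changes was 1.16.

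The locus piRNA_10-qB5.1-221.1_sense rose most, standing at 598 and 636 CPM in the heterozygous IPs, against 30.02 and 29.3 CPM in the homozygous IPs, a log2 fold change of 4.38 (SE 0.22, edgeR adjusted p = 4.48e-07). Its input levels were 82.1 and 80.1 CPM in heterozygous testes and 45.7 and 48.03 CPM in homozygous testes, so on these separate scales the heterozygous IPs lay above and the homozygous IPs below the testis libraries. The locus piRNA_11-qE1-9443.1_sense was at 1384 and 1312 CPM in the heterozygous IPs, against 126 and 168 CPM in the homozygous IPs (3.20 on the log2 scale), with 298 and 248 CPM in heterozygous testes and 317 and 363 CPM in homozygous testes. By adjusted p, piRNA_8-qC5-2209.1_sense came next, at 311 and 345 CPM in the heterozygous IPs, against 46.7 and 51.8 CPM in the homozygous IPs. For these 3 loci the libraries of a group were close and the groups far apart, while the testis log2 fold changes were 0.79, -0.32 and 0.11. The difference between IP and testis was 3.51, 3.43 and 2.54, and none of the 3 passed the test of that difference (edgeR adjusted p = 0.214, 0.214 and 0.260).

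Other loci with large rises were piRNA_10-qB4-6488.1_sense, at 2526 and 2597 CPM in the heterozygous IPs, against 244 and 348 CPM in the homozygous IPs, and piRNA_17-qE1.1-7037.1_sense, at 768 and 790.3 CPM in the heterozygous IPs, against 68.6 and 108 CPM in the homozygous IPs. Both had testis log2 fold changes just below 0 or lower, at -0.04 and -0.95. The locus that fell most, piRNA_1-qD-2017.1_sense, was at 11.03 and 12.8 CPM in the heterozygous IPs, against 51.4 and 70.9 CPM in the homozygous IPs, and its testis log2 fold change was also below 0 (-3.11). By contrast, piRNA_17-qC-935.1_sense was at 120.4 and 119.5 CPM in the heterozygous IPs, against 438 and 460.5 CPM in the homozygous IPs while its testis log2 fold change was 1.26. So the loci did not act alike: 34 of the 100 sense entries were not called, and their fold changes ran from -2.37 to 4.38.

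Antisense entries of the same loci had fewer reads, in sum 501 and 535 CPM in the heterozygous IPs against 154 and 173 CPM in the homozygous IPs. Of the 100, 55 passed the filter on low counts, and an entry could pass it through the higher group alone. Of those 55, 38 rose and none fell, with a median of 1.98 and a testis median of -0.29 over 52; 23 were called without heterozygous IP 1. With all IP libraries the share that rose was 69.1%, against 17.7% of all entries. The most extreme entry, piRNA_13-qA5-464.1_anti, was at 28.5 and 42.7 CPM in the heterozygous IPs, against 0.732 and 0 CPM in the homozygous IPs, with 4 reads in the homozygous IPs. The entry piRNA_13-qB1-1517.1_anti was at 101 and 98.7 CPM in the heterozygous IPs, against 26.2 and 18.5 CPM in the homozygous IPs, and piRNA_10-qA3-2592.1_anti at 20.5 and 22.5 CPM in the heterozygous IPs, against 1.83 and 2.23 CPM in the homozygous IPs. How the counting used strand is not stated beyond the entries' suffixes, so reads of overlapping transcripts on the other strand cannot be told apart.

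**Figure D3:**
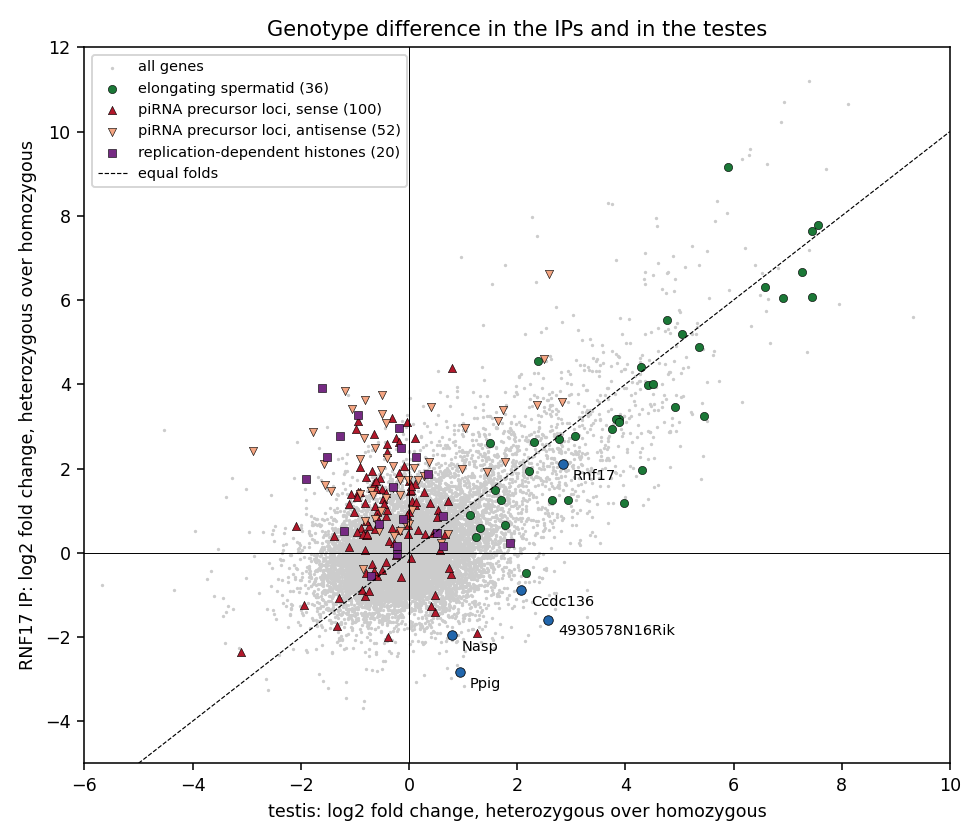
Log2 fold change, heterozygous over homozygous, in the RNF17 IPs (vertical axis) and in the testis libraries (horizontal axis) for each gene tested in both; the dashed line marks equal fold changes. Elongating spermatid genes (green) lie mostly above 0 on both axes, with medians of 3.13 in the IPs and 3.88 in testis. Most piRNA precursor loci (triangles) and replication-dependent histones (purple squares) lie above the dashed line. Nasp, Ppig, 4930578N16Rik, Ccdc136 and Rnf17 (blue) lie below it.

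Replication-dependent histones, whose mRNAs lack a poly(A) tail, were called higher in part, and the count depended on the tool and the libraries. Of the 62 genes listed, 27 passed the filter, again possibly through the higher group alone. Among these, 13 rose (48.1%, against 17.7% of all entries) and none fell, with a median of 1.74. Their summed level was 1185 and 1113 CPM in the heterozygous IPs, against 843 and 662 CPM in the homozygous IPs. In testis the median over 20 of them was -0.23. Hist1h2aa, a testis H2A, was at 48.7 and 42.7 CPM in the heterozygous IPs, against 8.79 and 4.62 CPM in the homozygous IPs, a log2 fold change of 2.78 (SE 0.31, edgeR adjusted p = 6.37e-05); its testis fold change was -1.28. Hist1h4j was at 18.8 and 23.9 CPM in the heterozygous IPs, against 2.93 and 0 CPM in the homozygous IPs and Hist1h4k at 16.6 and 24.6 CPM in the heterozygous IPs, against 4.39 and 0 CPM in the homozygous IPs; reads of these near-identical H4 genes could be split between them, and DESeq2 called neither. Most of the other called members were under 10 CPM in every library. Hist1h1t, the abundant linker histone of spermatocytes, was at 197 and 151 CPM in the heterozygous IPs, against 136 and 176 CPM in the homozygous IPs, with no call. DESeq2 called 5 histones, edgeR 5 without heterozygous IP 1 and 23 without homozygous IP 1. Genes of cytosolic ribosomal proteins had a median of -0.08, with 7 of 52 higher (13.5%; 3 genes without heterozygous IP 1, 14 without homozygous IP 1) and 10 lower (19.2%). The shares of all entries were 17.7% higher and 12.4% lower. Rpl23 was at 57.1 and 83.1 CPM in the heterozygous IPs, against 182 and 359 CPM in the homozygous IPs. Rps12 was at 1.62 and 2.26 CPM in the heterozygous IPs, against 8.60 and 19.6 CPM in the homozygous IPs. Rps6 was at 1.62 and 2.75 CPM in the heterozygous IPs, against 11.2 and 17.2 CPM in the homozygous IPs.

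RNA that fell in the heterozygous IPs included the most abundant transcript of both groups. Nasp, a histone chaperone of germ cells, was the most abundant gene in every IP library, at 13769 and 21475 CPM in the heterozygous IPs, against 57061 and 80111 CPM in the homozygous IPs, a log2 fold change of -1.96 (SE 0.34, edgeR adjusted p = 0.00123). In testis Nasp was at 4464 and 8687 CPM in heterozygous testes and 2633 and 4958 CPM in homozygous testes, a fold change of 0.79, so on these scales Nasp was above its input level in the IPs of both genotypes and further above it in the homozygotes. 4930578N16Rik was at 3179 and 4297 CPM in the heterozygous IPs, against 8892 and 13684 CPM in the homozygous IPs, a log2 fold change of -1.59 (SE 0.29, edgeR adjusted p = 0.00176), with 989.9 and 1137 CPM in heterozygous testes and 159 and 197 CPM in homozygous testes. Ppig, a nuclear cyclophilin rich in arginine and serine, was at 593 and 854 CPM in the heterozygous IPs, against 4378 and 5995 CPM in the homozygous IPs (-2.84, SE 0.28, edgeR adjusted p = 2.13e-05), and its testis log2 fold change was 0.94. Each of these 3 genes was lower in the heterozygous IPs and had a testis fold change above 0. Their differences between IP and testis, -2.84 for Nasp, -4.25 for 4930578N16Rik and -3.87 for Ppig, were not called by edgeR (adjusted p = 0.360, 0.214 and 0.214).

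The coding sequences of these transcripts are rich in purines. The 60 bases with the highest purine share in each coding sequence, read from GENCODE M21 transcripts (mouse build GRCm38), are shown to let that feature be seen, 5′ to 3′, with purine runs of at least 8 bases in capitals. The first 4 fell in the heterozygous IPs, and Akap12, Prm1 and Tnp2 rose.
Nasp: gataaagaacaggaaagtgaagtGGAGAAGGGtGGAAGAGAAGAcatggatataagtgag
4930578N16Rik: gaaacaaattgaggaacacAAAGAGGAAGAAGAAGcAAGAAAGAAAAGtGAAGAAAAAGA
Ppig: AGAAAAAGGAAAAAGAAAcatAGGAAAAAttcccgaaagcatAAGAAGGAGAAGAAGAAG
Ccdc136: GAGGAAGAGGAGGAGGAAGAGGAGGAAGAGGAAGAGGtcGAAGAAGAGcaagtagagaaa
Akap12: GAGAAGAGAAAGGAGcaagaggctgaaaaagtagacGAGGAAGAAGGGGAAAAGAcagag
Prm1: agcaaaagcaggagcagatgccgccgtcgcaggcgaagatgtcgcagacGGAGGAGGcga
Tnp2: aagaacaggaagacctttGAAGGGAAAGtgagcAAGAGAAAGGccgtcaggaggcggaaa
Purines make up 83.3% of this stretch in Nasp, 88.3% in 4930578N16Rik, 85% in Ppig and 93.3% in Ccdc136, which has an unbroken run of 37. They make up 90% in Akap12, 70% in Prm1 and 78.3% in Tnp2. The median over the 13119 genes matched and tested was 73.3%, so in this stretch Prm1 lay below the median gene. Over its whole coding sequence Prm1 had 60.8% purines, against a median of 52.5% over those genes. Prm2, which also rose, had 63.6%, and Tnp2 52.7%. Among the genes shown that rose, only Akap12 had a stretch as rich as those of the genes shown that fell. The genes shown are a selection, and this contrast does not extend to all genes that fell. Among large falls not shown, the richest stretch held 66.7% purines in Celf4, 68.3% in Fam160b2 and 70% in Gm4944. It held 73.3% in Dapk2, 75% in Atg4a and 83.3% in both Rhox3f and Rhox3h. Longer coding sequences hold more such stretches to choose from, and Prm1 (153 bases) and Tnp2 (351 bases) are short. Akap12, an anchoring protein, was at 3024 and 2937 CPM in the heterozygous IPs, against 1681 and 1839.9 CPM in the homozygous IPs (log2 fold change 0.76, SE 0.21, edgeR adjusted p = 0.0198), and Ccdc136, an acrosomal protein, at 2859.8 and 2858 CPM in the heterozygous IPs, against 4476 and 6109.9 CPM in the homozygous IPs (-0.89, SE 0.24, edgeR adjusted p = 0.0168). Akap12 lost its call without either heterozygous library or homozygous IP 1 (0.66 to 0.77), and Ccdc136 without either heterozygous library or homozygous IP 2 (-0.89 to -0.63).

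Over all coding sequences matched, purine share and direction went together weakly. The median purine share was 51.9% in 2234 genes called higher, 54.4% in 1647 called lower and 52.4% in 9238 not called. Genes called lower also had the highest median level, a mean log2 CPM of 5.71 against 4.50 for those called higher and 3.95 for those not called. Among genes at a mean log2 CPM of 8 or more the medians were 54.1% (56 called higher), 58.1% (266 called lower) and 54.2% (382 not called). Of 496 genes with at least 60% purines, 205 were called lower (41.3%, against 12.4% of all entries) and 48 higher (9.68%, against 17.7%). The 50 most abundant genes had a median of 58.0% purines in the heterozygous IPs and 60.8% in the homozygous IPs, against 57.4% in heterozygous and 55.7% in homozygous testis. Across 13119 genes the Spearman correlation of fold change with purine share was -0.21, a description of genes that share 4 libraries.

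**Figure D4:**
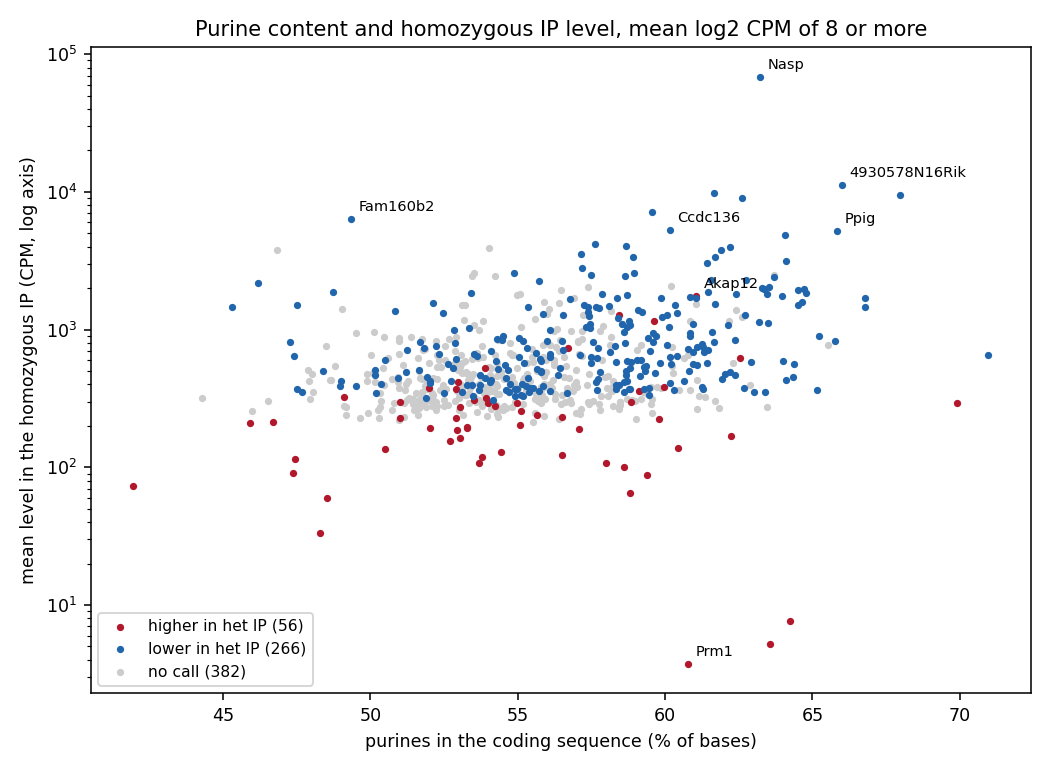
Mean level in the homozygous IPs (CPM, log axis) against the purine share of the coding sequence for genes at a mean log2 CPM of 8 or more; 56 higher (red), 266 lower (blue) and 382 not called (grey) in the heterozygous over the homozygous IPs. Most genes above 60% purines are blue, with Nasp highest; Prm1 and Akap12 are exceptions in red, and Fam160b2 falls at a low purine share.

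Other large falls came at purine shares from 49.3% in Fam160b2 to 63.1% in Rhox3f, against a median of 52.5% over all genes matched and tested. Atg4a (53.1%), Gm4944 (56.5%), Dapk2 (55.8%) and Rhox3h (62.8%) also lay above that median, and Celf4 (50.7%) below it. Fam160b2 was at 449 and 1169 CPM in the heterozygous IPs, against 3284 and 9482 CPM in the homozygous IPs, a log2 fold change of -2.98 (SE 0.51, edgeR adjusted p = 0.00125); the libraries within each group differed more than 2-fold, and the value was -2.02 without homozygous IP 2 and -3.84 without heterozygous IP 2. Atg4a, an autophagy protease, was at 12.8 and 19.1 CPM in the heterozygous IPs, against 134 and 167 CPM in the homozygous IPs, a log2 fold change of -3.25 (SE 0.26, edgeR adjusted p = 4.45e-06), with a testis log2 fold change of -2.61. Gm4944 was at 7.89 and 9.54 CPM in the heterozygous IPs, against 71.01 and 85.1 CPM in the homozygous IPs, and its testis fold change was 1.01. Dapk2, a death-associated kinase, was at 5.71 and 11.3 CPM in the heterozygous IPs, against 34.4 and 82.3 CPM in the homozygous IPs and Celf4, an RNA-binding protein, at 21.6 and 25.7 CPM in the heterozygous IPs, against 95.4 and 227 CPM in the homozygous IPs. The homozygous libraries differed about 2-fold for these last 2 genes, without overlap with the heterozygous ones. Rhox3f, an X-linked homeobox gene of the testis, was at 1.24 and 1.13 CPM in the heterozygous IPs, against 11.5 and 19.3 CPM in the homozygous IPs, the largest fall, at -3.67 (SE 0.43, edgeR adjusted p = 8.17e-05), and Rhox3h at 1.81 and 3.72 CPM in the heterozygous IPs, against 18.3 and 25.01 CPM in the homozygous IPs. With Rhox3c, 3 of the 6 Rhox genes tested fell (50%, against 12.4% of all entries). Of 27 Rhox genes listed, only these 6 were tested, and reads of near-identical copies could be split between them.

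Fold changes in the IPs and in the testes, which share no library, can be set side by side for 13263 genes. Of 2321 genes higher in the heterozygous IPs, 1918 were above 0 in testis, and of 1658 lower, 940 were below 0 in testis. The Pearson correlation of the fold changes across genes was 0.605 and the Spearman correlation 0.364; genes are not independent replicates. The direct test of the difference, edgeR's interaction over 8 libraries, called none, as given above. DESeq2 called 245 of the 4914 it tested (4.99%), 28 of them higher (0.57%) and 217 lower (4.42%). Testis replicate 1 stood apart from replicate 2 in both genotypes, and edgeR's count moved when a testis library was left out, to 259 without heterozygous testis 1 and 3 without heterozygous testis 2. It was 47 with the replicate number as a term within the IPs and within the testes. DESeq2 was not run with a library left out.

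Transposon RNA was more abundant in the heterozygous IPs. Uniquely mapped transposon reads numbered 14.6 and 11.8 per 100 gene reads there, against 6.89 and 6.97 in the homozygous IPs; in the testes they ranged from 6.30 to 19.3, and were higher in replicate 1 of both genotypes. Each transposon family has a sense and an antisense entry. Of 977 entries tested on the scale of the gene reads, 581 were called (59.5%): 564 rose (57.7%) and 17 fell (1.74%), with a median log2 fold change of 0.92. When scaled to each other instead, 132 rose and 170 fell, with a median of -0.01. Direction is therefore given against gene reads, and a log2 fold change near 0.92 is that of the median entry.

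The 4 entries with the smallest p were antisense to endogenous retroviruses, followed by a pair of antisense LINE-1 entries. MERVL-int_anti, antisense to a mouse ERVL element, was at 272 and 252 CPM in the heterozygous IPs, against 17.02 and 18.8 CPM in the homozygous IPs, a log2 fold change of 3.87 (SE 0.20, edgeR adjusted p = 2.73e-06). In testis it was at 99.9 and 37.97 CPM in heterozygous testes and 87.01 and 133 CPM in homozygous testes, so on these scales the heterozygous IPs lay above all testis libraries and the homozygous IPs below them. RMER3D-int_anti was at 106 and 91.7 CPM in the heterozygous IPs, against 10.8 and 9.40 CPM in the homozygous IPs, and MMERVK10C-int_anti at 124 and 156 CPM in the heterozygous IPs, against 23.1 and 22.5 CPM in the homozygous IPs. Among intracisternal A particles (IAPs), a family that still transposes in mice, IAPLTR3-int_anti was at 244 and 295 CPM in the heterozygous IPs, against 43.6 and 48.7 CPM in the homozygous IPs and IAPEz-int_anti at 124 and 113 CPM in the heterozygous IPs, against 22.5 and 23.3 CPM in the homozygous IPs. The libraries of a group were close for each of these, and the groups did not overlap. Of 14 IAP antisense entries 11 rose, with a median of 1.70. Of 16 IAP sense entries 7 rose and 1 fell, with a median of 0.78. Among all transposon entries tested 57.7% rose and 1.74% fell, with a median of 0.92.

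In older LINE-1 elements too the antisense median was the higher. Of 92 antisense entries of older LINE-1 families 75 rose and 2 fell, with a median of 1.29, while of 98 sense entries 37 rose and 4 fell, with a median of 0.44. L1MA7_anti was at 89.2 and 71.6 CPM in the heterozygous IPs, against 12.8 and 11.5 CPM in the homozygous IPs and Lx2_anti at 223 and 206 CPM in the heterozygous IPs, against 46.3 and 42.7 CPM in the homozygous IPs. Among the young L1Md families 11 of 12 entries rose. The shares over all transposon entries tested were 57.7% higher and 1.74% lower. L1Md_F2_anti was at 678 and 857 CPM in the heterozygous IPs, against 214 and 247 CPM in the homozygous IPs, a log2 fold change of 1.74 (SE 0.23, edgeR adjusted p = 0.000222). L1Md_F2_sense was at 16251 and 1929.5 CPM in the heterozygous IPs, against 711 and 683 CPM in the homozygous IPs, and the first of these 4 libraries alone stands far above the rest. L1Md_T_anti was the L1Md entry not called, at 220.4 and 365 CPM in the heterozygous IPs, against 330.2 and 446 CPM in the homozygous IPs. A further entry set by heterozygous IP 1 was MTB_Mm-int_sense, at 13524 and 42.2 CPM in the heterozygous IPs, against 20.3 and 22.8 CPM in the homozygous IPs.

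Antisense medians were also the higher for some SINEs, and sense medians for some LTR classes. Of 14 antisense B1 entries 12 rose (median 0.93), and of 17 sense B1 entries 1 rose and 1 fell (0.15); B1F_anti was at 259 and 278 CPM in the heterozygous IPs, against 156 and 88.2 CPM in the homozygous IPs. All 4 antisense B4 entries rose (1.08) and none of the 4 sense entries did (0.23). For B2, 5 of 5 sense entries (0.84) and 1 of 5 antisense entries (0.36) rose. ERVL and ERV1 had higher medians in sense (1.26 and 1.39) than in antisense (0.70 and 0.72); RodERV21-int_sense, an ERV1 element, was at 238 and 249 CPM in the heterozygous IPs, against 50.3 and 37.3 CPM in the homozygous IPs. MaLR entries rose in 114 of 165 cases with medians of 1.03 in sense and 1.02 in antisense, against 0.92 for all entries. Beside these class counts, 57.7% of all entries tested rose and 1.74% fell. Over all entries the medians were 0.79 in sense and 0.99 in antisense, and no test was made between orientations. The most abundant of the entries that fell was HAL1-3A_ME_sense, at 2002 and 2632 CPM in the heterozygous IPs, against 5202 and 9784 CPM in the homozygous IPs.

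**Figure D5:**
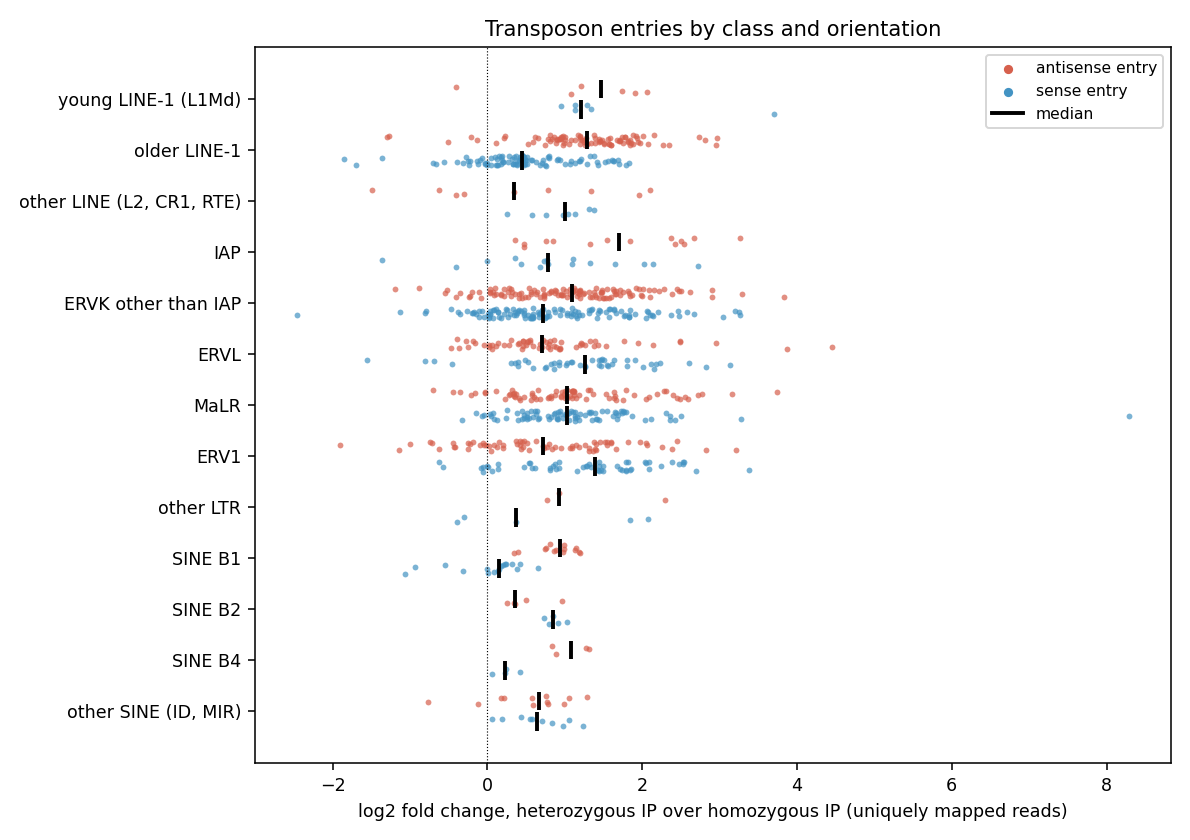
Log2 fold change, heterozygous IP over homozygous IP, of uniquely mapped transposon entries by class, antisense above and sense below in each class, with medians as black bars. Most points lie right of 0; antisense medians exceed sense medians for older LINE-1 (1.29 and 0.44), IAP (1.70 and 0.78), SINE B1 (0.93 and 0.15) and SINE B4 (1.08 and 0.23).

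Multiply mapped transposon reads gave no call. They numbered 6.15 and 1.49 per 100 gene reads in the heterozygous IPs and 0.670 and 0.635 in the homozygous IPs, so heterozygous IP 1 stood apart from the other 3 libraries, as did the replicate 1 testis libraries (7.54 and 7.10, against 2.07 and 1.19 in replicate 2). Scaled to each other, 232 of 405 entries tested were above 0, with a median of 0.20. On the scale of the gene reads, 399 of the 410 entries tested were above 0, with a median of 2.82. There edgeR called none (0%, with 136 at an unadjusted p under 0.05, smallest adjusted p = 0.146). DESeq2 called 13 of 705 (1.84%), each of them higher. Without heterozygous IP 1, 334 of 401 were above 0, with a median of 1.08, and 90 were called. RMER6A_sense was at 897 and 974 CPM in the heterozygous IPs, against 268 and 339 CPM in the homozygous IPs, and L1Md_F2_anti, here with multiply mapped reads, at 4488 and 676 CPM in the heterozygous IPs, against 182 and 202 CPM in the homozygous IPs. MERVL-int_sense was at 67.8 and 63.4 CPM in the heterozygous IPs, against 15.4 and 24.8 CPM in the homozygous IPs. IAPEY3-int_sense, lower in the heterozygous IPs, was at 96.7 and 99.5 CPM in the heterozygous IPs, against 189 and 197 CPM in the homozygous IPs. These groups did not overlap, and Lx9_anti shows the other kind of entry, at 563 and 4.69 CPM in the heterozygous IPs, against 6.04 and 4.78 CPM in the homozygous IPs.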

How the data were processed

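The authors deposited raw read counts per gene, piRNA precursor locus and transposon family, with separate transposon tables for reads mapped uniquely and multiply. The submitters' processing notes name STAR, DESeq and build mm9; the sources used here do not give their versions or roles, nor how reads were counted. Per the labels' protocols, libraries started from 1 µg of total RNA, used not-so-random priming and kept fragments of 350 to 500 bp. The 12 testis columns repeated among the tables were identical, and 0 columns were left unmapped. The authors' table of testis differences was not used.

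Counts were tested with edgeR 4.0.16 (R 4.3.3): TMM scaling, the filterByExpr filter and the quasi-likelihood test, two-sided, on the 4 IP libraries, or on all 8 for the difference between IP and testis. Transposon counts used the library sizes of the gene table. The edgeR scripts were tested on simulated data. Depth limits low genes: floors (3 reads over a group) and 95% intervals cover counting error only. Replicates of a group differed beyond sampling noise (chi-square per degree of freedom 12.5 in the heterozygous and 17.1 in the homozygous IPs). Coding sequences were matched for 17204 entries by current and 1542 by older symbols, of 19276; 330 had none and 200 are piRNA locus entries. Of the gene lists, 1 of 27 non-coding RNAs was in the table and none was tested.

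The comparison and the lists were chosen with earlier results of these data known. Genes were named by this rule: Rnf17, the 10 largest rises and falls among calls without overlap and at a mean log2 CPM of 3 or more, the 5 highest in the heterozygous IP, and up to 3 called members of each list (2 of each transposon class) by adjusted p. Further members were chosen after their values were seen. A gene that this rule names is not reported here. Alternatives were DESeq2 1.42.0, other scalings and filters, leaving out libraries and a replicate block.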

Additional observations from a re-analysis of the deposited data

How the results depend on the processing

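With 1 library left out, 2069 to 5414 genes were called, 1482 to 3026 of them higher and 587 to 2388 lower; the lowest values are without heterozygous IP 1. Scaling by total gene reads gave 3145 higher and 832 lower genes. DESeq2 called 3437 genes, of which 3376 were also called by edgeR. Uniquely mapped transposon entries called numbered 302 when scaled among themselves (132 higher, 170 lower), 482 to 598 with 1 library left out (461 to 563 higher, 8 to 35 lower), and 9 lower when scaled by total gene reads. Multiply mapped entries called numbered 0 in edgeR, 13 in DESeq2, 54 without a filter and 2 to 805 with 1 library left out. Genes called for the difference between IP and testis numbered 0 in edgeR, 245 in DESeq2, 10 with total gene reads and 0 to 259 with 1 library left out. A lone library is assumed there to vary like the other group. Scaled among themselves, B2_Mm1t_sense turned to -0.18 by unique reads, and by multiple reads L2a_anti to -0.95, RMER6A_sense to -0.059, MERVL-int_sense to -0.062, MTA_Mm-int_sense to -0.25 and B1_Mus1_sense to -1.40. By multiple reads, with 1 library left out, Lx9_anti ranged from -0.20 to 6.70 and B1_Mus1_sense from -0.39 to 1.90, the negative values without heterozygous IP 1. The cause of these turns was not tested. No gene picked by the naming rule turned its direction. The further members, chosen after their values were seen, were not followed one by one across these settings. The labels do not say that replicate numbers mark pairs: deviations from the group means correlated between genotypes at 0.04 in the IPs and at 0.59 in the testes, with 2 numbers in each. With the replicate block 4525 genes were called (3957 shared), 502 unique and 16 multiple transposon entries, and 47 genes for the difference between IP and testis.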
